A study of Mus musculus with 48 samples.

Results

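The 3 control limb libraries of NOD/ShiLtJ mice were compared with the 19 usable control limb libraries of 7 other inbred strains, out of 48 libraries in the series. Each library holds RNA of the tibial metaphysis, the bone just below the growth plate together with its marrow, of a male mouse aged 19 weeks. In every mouse the left hindlimb had been cast for 3 weeks, and the control sample is the uncast right limb of the same animal, so all controls come from mice that carried a cast on the other side. The other strains were 129S1/SvImJ, A/J, C57BL/6J and NZO/HlLtJ, which are classical laboratory strains like NOD/ShiLtJ, and the wild-derived CAST/EiJ, PWK/PhJ and WSB/EiJ. Each strain gave 3 mice except A/J, which entered with 1 library because its 2 other control libraries were almost empty. The groups were taken from the strain and limb labels, each strain was weighted equally, and mice are named below by strain and label number.

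NOD/ShiLtJ (non-obese diabetic) is an inbred strain known for spontaneous autoimmune diabetes, in which T cells destroy the insulin-producing cells of the pancreas. Its best-known susceptibility region is the major histocompatibility complex (MHC), the cluster of genes whose products display peptides to T cells, and it carries an MHC haplotype of its own kind and lacks a working class II E alpha chain. Whether these males were diabetic is not stated in the labels. A dissected metaphysis can also carry fibres of the attached muscle and tendon, whose messages are so abundant that a small amount changes many genes.

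Library totals in the control limbs ran from 5888836 to 11242405 counts, with a median of 7665845, and the NOD/ShiLtJ libraries of mice 4, 5 and 6 held 6975384, 7941241 and 10642046. Levels are given as CPM, read counts scaled to a common library size with TMM factors. Differences are NOD/ShiLtJ minus the mean of the 7 other strains on the log2 scale. A gene is called when its Benjamini-Hochberg false discovery rate (FDR) in edgeR's quasi-likelihood test is under 0.05. Markers of the labelled tissue were present: Col1a1, the main collagen of bone, stood at 6536, 10615 and 15846 CPM in the NOD/ShiLtJ libraries.

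Skeletal muscle RNA was high in the NOD/ShiLtJ control limbs. Of 16493 genes tested, 1784 were called (10.8%), 1509 of them higher in NOD/ShiLtJ (9.15%) and 275 lower (1.67%). These shares are the background for the list counts in control limbs given below. Without NOD/ShiLtJ mouse 4, 677 genes were called (4.11%). Of 30 skeletal muscle genes, 29 were higher and none was lower, with a median difference of 3.80, against a median of 0.01 over all genes tested. Acta1, the actin of skeletal muscle fibres, stood at 9719, 2596 and 2930 CPM in NOD/ShiLtJ mice 4, 5 and 6. In the 19 other libraries it ran from 7.51 to 3608 CPM with a median of 176, so mouse 4 lay above every other library and mice 5 and 6 lay inside the upper end of the range. Its difference was 3.82 ± 0.77 (standard error, SE), with an FDR of 0.00268.

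Other parts of the contractile apparatus moved with Acta1. Myh1, a myosin heavy chain of fast fibres, was at 6879, 1944 and 2566 CPM in NOD/ShiLtJ and at 1356 CPM or less in all other libraries, a difference of 4.46 ± 0.89 (FDR 0.00243). Atp2a1, the calcium pump of fast muscle, was at 7836.8, 1877 and 2470 CPM against 8.14 to 2772 CPM, a difference of 3.74 ± 0.81 (FDR 0.00452). Only mouse 4 stood above all other libraries for Atp2a1. Myh4 (3.52), Tnnt3 (3.65), Ckm (3.77), Neb (4.11), Ckmt2 (4.11) and Myh2 (4.20), which are myosins, a thin filament protein, creatine kinases and a filament scaffold, were also called. The exception was Myh7, the myosin of slow fibres, with a difference of 0.49 that did not pass. Without mouse 4, 13 of the 30 genes were called higher (background then 3.36%), and Acta1 (FDR 0.0622), Myh2 (0.0872), Atp2a1 (0.0922) and Myh4 (0.176) were no longer called.

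The mean log2 CPM of the 30 genes was used as a muscle score for each library. It was 11.002, 8.89 and 9.41 in NOD/ShiLtJ mice 4, 5 and 6. The 3 libraries of 129S1/SvImJ had 8.12 to 9.58 and the single A/J library had 8.81, while the 5 remaining strains ran from 1.61 to 7.69. NOD/ShiLtJ therefore lay above those 5 strains without overlap, and mice 5 and 6 overlapped 129S1/SvImJ. The score exceeded the mean of the 7 strains by 3.82. With the other libraries weighted equally the difference was 4.12, with a 2-sided exact permutation p of 0.00325 over 1540 choices of 3 libraries. The permutation treats single libraries as interchangeable across strains, so its p does not measure the spread between strains. Without mouse 4 the score exceeded the mean of the 7 strains by 3.20, and the same permutation of the library-weighted difference gave a p of 0.0381.

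**Figure D1:**
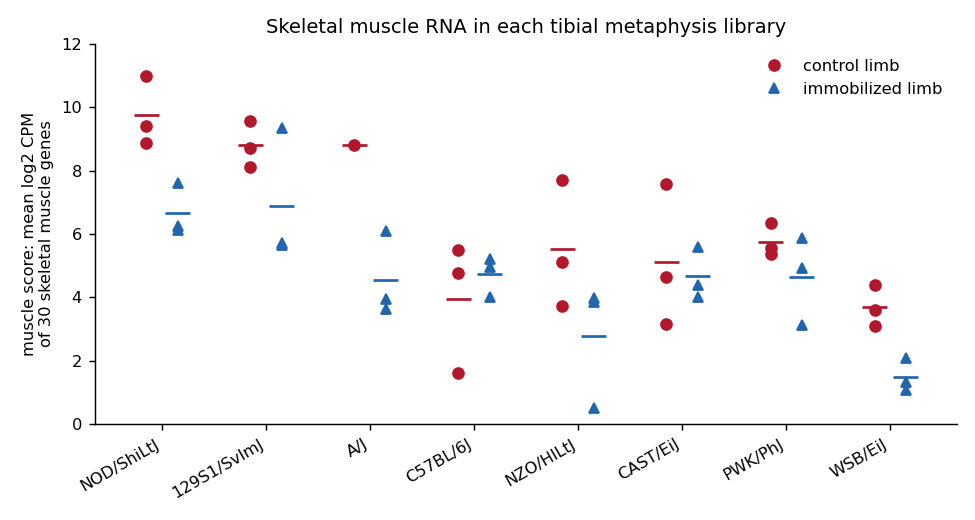
Muscle score (mean log2 CPM of 30 skeletal muscle genes) of each library by strain. Circles are control limbs, triangles are immobilized limbs and short lines are means. The NOD/ShiLtJ control limbs sit between 8.89 and 11.002, beside 129S1/SvImJ and A/J and above the other 5 strains.

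Genes whose level followed the muscle score within groups were then set apart from the rest. The muscle class consisted of the 30 listed genes and 148 others with a correlation of at least 0.7 to the score over deviations from the group means of the 46 usable libraries. Of its 178 genes 176 were called, all higher in NOD/ShiLtJ, so 1608 called genes remained outside it, 1333 higher and 275 lower, and 568 outside it were called without mouse 4. Those 1333 still leaned towards muscle: their median correlation with the score was 0.28, and 47.3% of them reached 0.3, against a median of -0.01 and 9.20% over all genes tested. Among the 275 lower genes the median was -0.10, and 14.9% were at -0.3 or below, against 6.33% over all genes tested. With every gene at 0.3 or more counted as muscle-tracking, 974 called genes were left.

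A pair of further comparisons took muscle content into account. With the muscle score as a covariate, 145 genes were called (0.879%), 108 higher (0.655%) and 37 lower (0.224%), and 144 of them had also been called in the same direction without it. The score is the mean of the 30 muscle genes, so their own differences are brought near 0 by construction (none called, median 0.04). The median standard error of a gene was 1.49 times that without the covariate. Against 129S1/SvImJ and A/J alone, the strains with the nearest muscle scores and chosen after those scores had been seen, 211 genes were called (1.28%), 134 higher (0.812%) and 77 lower (0.467%), and none belonged to the muscle class. Muscle content was not equal there either, since the 30 muscle genes kept a median difference of 1.34.

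**Figure D2:**
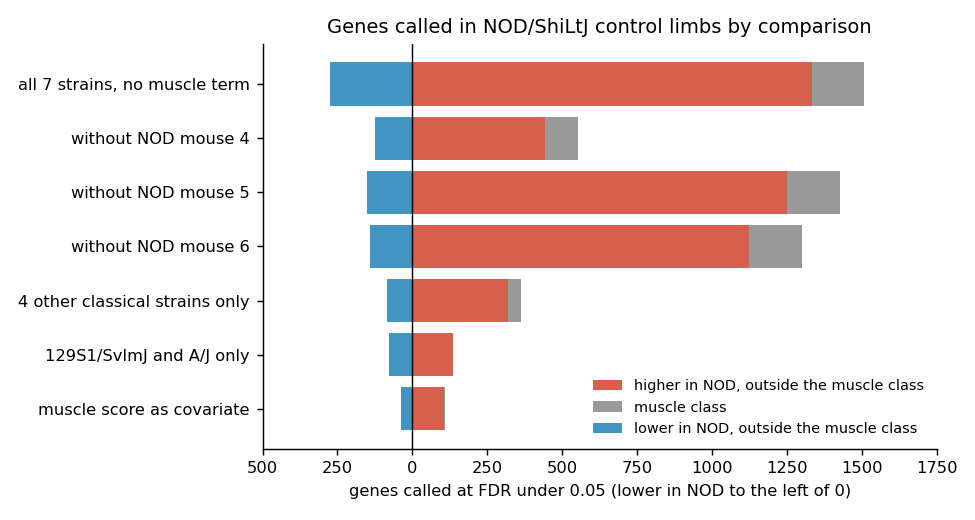
Number of genes called in NOD/ShiLtJ control limbs in 7 versions of the comparison. Bars to the right are genes higher in NOD/ShiLtJ, with the muscle class in grey, and bars to the left are genes lower. The count falls from 1784 to 677 without mouse 4, to 211 against 129S1/SvImJ and A/J and to 145 with the muscle score as a covariate.

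Genes of oxidative metabolism rose with the muscle genes. Of 19 nuclear genes of the respiratory chain, the enzymes that make ATP in mitochondria, 18 were called higher and none lower, with a median of 0.69. Atp5c1, a subunit of ATP synthase, was at 497, 267 and 302 CPM in NOD/ShiLtJ and at 157 to 293 CPM elsewhere (0.84 ± 0.13, FDR 0.000321). Mouse 4 stood apart and mouse 5 fell within the range of the other strains. Cox5b (0.92), Cox5a (0.86) and Sdhb (0.84), subunits of cytochrome oxidase and succinate dehydrogenase, were called higher as well. The exception was Nnt, a proton-pumping transhydrogenase, at 0.39 (not called). Without mouse 4 only 3 of the 19 were called (3.36% of all genes were higher then). With the muscle covariate none was called, and their median correlation with the muscle score was 0.44.

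Of 13 mitochondrially encoded genes, added after values had been seen, 11 were called higher with a median of 1.58, and the remaining 2 were not called. Without mouse 4 the count was 3, and with the muscle covariate and against 129S1/SvImJ and A/J it was 0. The median was still 0.71 with the covariate and 0.94 against 129S1/SvImJ and A/J. Their median correlation with the muscle score was 0.58. mt-Co1, a core subunit of cytochrome oxidase, was at 39389, 14424 and 32495 CPM in NOD/ShiLtJ and at 1878 to 20057 CPM in the other libraries, so mouse 5 lay inside that range. Its difference was 1.97 ± 0.29 (FDR 0.000227). Of 13 genes induced by fasting or low insulin, 3 were called higher: Cpt1b (2.60), which brings fatty acids into mitochondria, Ucp3 (2.99), a mitochondrial carrier of muscle, and Pdk4 (1.93), which blocks the use of glucose. All of these followed the muscle score, with correlations of 0.74, 0.79 and 0.59, and none was called with the covariate.

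Tendon and fascia genes, a list also added after values had been seen, were higher in 6 of 12 and lower in none, with a median of 1.93. Fmod, a small proteoglycan of tendon collagen, was at 418, 358 and 336 CPM in NOD/ShiLtJ and at 7.48 to 223 CPM in the other libraries, without overlap (2.50 ± 0.58, FDR 0.00757). Tnn, a matrix protein of tendon and periosteum, was at 268, 216 and 178 CPM against 3.21 to 85.7 CPM, again without overlap (3.03 ± 0.54, FDR 0.00104). These genes hardly followed the muscle score (median correlation 0.12), yet none was called with the covariate, where their median was 1.05, and none against 129S1/SvImJ and A/J. Without mouse 4, 2 of the 12 were called. The summed level of the 12 genes ran from 1514 to 2571 CPM in NOD/ShiLtJ and from 142 to 2689 CPM elsewhere, and its part in the other results was not tested.

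Bone and cartilage genes showed little. Of 19 osteoblast and bone matrix genes 1 was called, Bglap2, which is taken up with the gene copies below, and the median was 0.10. Col1a1 had a difference of 0.38 that was not called. None was called among 10 osteocyte, 15 osteoclast, 9 osteoclast regulator, 13 Wnt and 14 growth plate genes, whose medians were -0.45, -0.34, -0.30, -0.16 and 0.36. Adipocyte genes (0 of 13, median -0.56) and endothelial genes (0 of 10, -0.14) did not pass either. Of 11 genes of CXCL12-abundant marrow stroma, 2 were called lower: Kitl (-0.62, FDR 0.0373), the growth factor that maintains blood stem cells, and Esm1 (-0.96, FDR 0.041). Both calls were lost without mouse 4, at FDR 0.248 and 0.279. In bulk RNA, fewer cells of a type and less RNA per cell cannot be told apart.

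**Figure D3:**
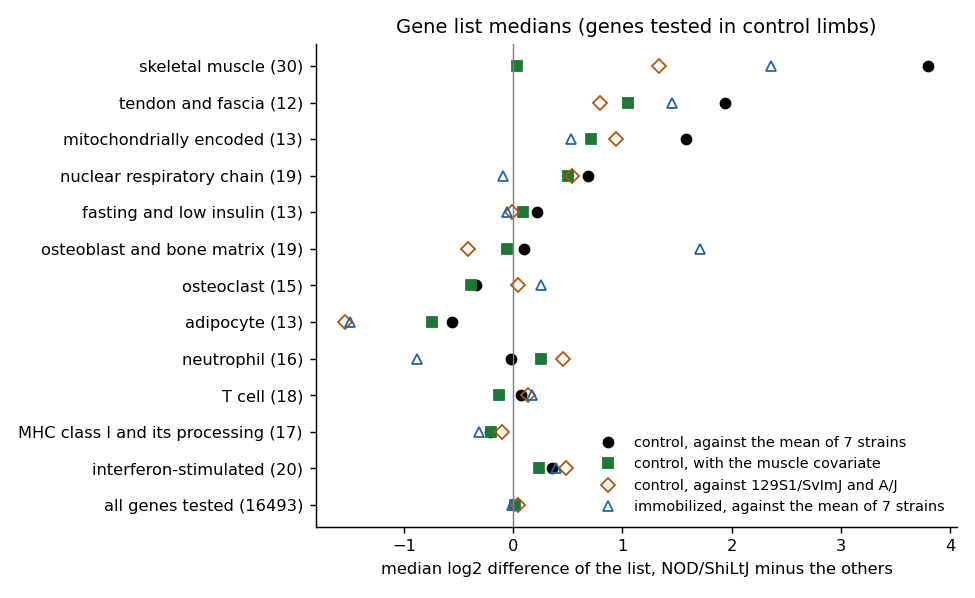
Median log2 difference (NOD/ShiLtJ minus the others) of 12 gene lists and of all genes, with the number of genes tested in brackets. Filled circles are the control limbs, squares the same with the muscle covariate, diamonds the comparison with 129S1/SvImJ and A/J only, and triangles the immobilized limbs. The skeletal muscle median moves from 3.80 to 0.04 with the covariate, which is built from these genes, and the MHC class I median stays between -0.32 and -0.10.

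Some MHC class I genes differed with and without the muscle covariate. Of 17 genes of class I and its peptide loading tested, 4 were called lower and 1 higher, and with the muscle covariate 4 were lower and 0 higher (0.224% of all genes were lower there). H2-K1, the classical class I heavy chain of the K locus (chr17:33996017-34000347, GRCm38), was at 260, 186 and 175 CPM in NOD/ShiLtJ. In the other libraries it ran from 256 to 819 CPM with a median of 407, and a single PWK/PhJ library lay inside the NOD/ShiLtJ range. The difference was -1.02 ± 0.16 (FDR 0.000304), and with the covariate -1.16 (FDR 0.0106).

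The non-classical class I genes further along the complex were lower by more. H2-Q10, a secreted class I molecule (chr17:35470089-35474563), was at 12.8, 10.4 and 10.2 CPM, below all 19 other libraries (16.1 to 113 CPM), with a difference of -1.93 ± 0.20 (FDR 6.31e-06). H2-T23, the Qa-1 molecule read by NK and CD8 T cells, was at 34.4, 33.3 and 27.4 CPM and was below every library except that of A/J, which had 21.2 CPM (-1.46 ± 0.22, FDR 0.000289). H2-T22, a ligand of gamma delta T cells, was at 12.8, 11.05 and 9.49 CPM, where A/J had 9.83 CPM and the rest 16.4 CPM or more (-1.69 ± 0.15, FDR 9.45e-07). For both genes NOD/ShiLtJ differed from 6 strains and not from A/J.

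In the same stretch of chromosome 17, other class I genes were higher. H2-T10, a close paralogue of H2-T22, was at 51.4, 32.1 and 29.8 CPM against 35.8 CPM in A/J and at most 19.8 CPM in the remaining libraries (1.63 ± 0.16, FDR 3.11e-06). It was chosen after values were seen, as were H2-Q2 (27.8, 22.5 and 19.7 CPM, difference 2.61) and H2-Bl (8.56, 6.97 and 5.17 CPM, difference 2.84). H2-Q2 and H2-Bl were close to 0 in 129S1/SvImJ and C57BL/6J, and PWK/PhJ did not differ from NOD/ShiLtJ in either. A run of 4 neighbouring tested genes, all called, lay at chr17:36029773-36084223 and held H2-T23 and H2-T22, both lower, and Gm11127 and H2-Bl, both higher. The reference sequence is that of C57BL/6J, and class I genes are near-identical and highly variable between strains, so a change in expression and a change in how reads of another haplotype were assigned cannot be told apart for these genes.

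The peptide loading partners of class I were not called. B2m (-0.21), Tap1 (-0.22), Tap2 (-0.17), Tapbp (-0.21), Psmb8 (-0.20) and Psmb9 (-0.24), which supply the light chain, the peptide transporter and the immunoproteasome, all had small negative differences that did not pass. H2-D1, the other classical class I gene, was at 858, 806 and 756 CPM, inside the 262 to 1242 CPM of the other libraries, and was called higher at 0.45 ± 0.13 (FDR 0.0297). That call was lost without NOD/ShiLtJ mouse 4 (FDR 0.229) and with the muscle covariate.

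Of 12 MHC class II genes, 1 was called higher and 2 lower. H2-Ea-ps, the name under which the reference lists the E alpha chain, was at 0, 0 and 0.211 CPM in NOD/ShiLtJ. It was likewise at 0.414 CPM or less in 129S1/SvImJ, C57BL/6J and PWK/PhJ, and at 65.3 to 208 CPM in A/J, CAST/EiJ, NZO/HlLtJ and WSB/EiJ. H2-Eb1, the partner chain, was at 135, 130 and 87.3 CPM and was called higher (0.87, FDR 0.00935), with PWK/PhJ and WSB/EiJ at 18.7 CPM or less. Against 129S1/SvImJ and A/J the same gene was at -0.34. Ciita (-0.84, FDR 0.0163), the master switch of class II transcription, and H2-DMb1 (-0.70, FDR 0.016), which edits peptides, were called lower, while H2-Aa (-0.56) and H2-Ab1 (-0.42), the chains of the remaining class II molecule, were not called. With the muscle covariate no class II gene was called. H2-Eb1 lost its call without NOD/ShiLtJ mouse 4 (FDR 0.126), and Ciita and H2-DMb1 lost theirs without mouse 5 (0.1003 and 0.133).

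Among T cell genes only the co-receptor Cd4 (chr6:124864692-124888221) was called, 1 of 18, with a list median of 0.07. Cd4 was at 36.0, 61.2 and 52.9 CPM in NOD/ShiLtJ. In the other libraries it ran from 5.12 to 31.8 CPM with a median of 14.9, so the groups did not overlap. The difference was 1.76 ± 0.16 (FDR 1.77e-06), it was 1.97 with the muscle covariate (FDR 0.000367) and 1.21 against 129S1/SvImJ and A/J (FDR 0.0151), and it remained called whichever library was left out. Cd3e (0.96, FDR 0.051), Cd3d (0.60) and Cd8a (0.15), which mark T cells in general and killer T cells, were not called. Cd3e stood at 6.64, 3.16 and 3.69 CPM, inside or just above the 0.584 to 4.58 CPM of the others.

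**Figure D4:**
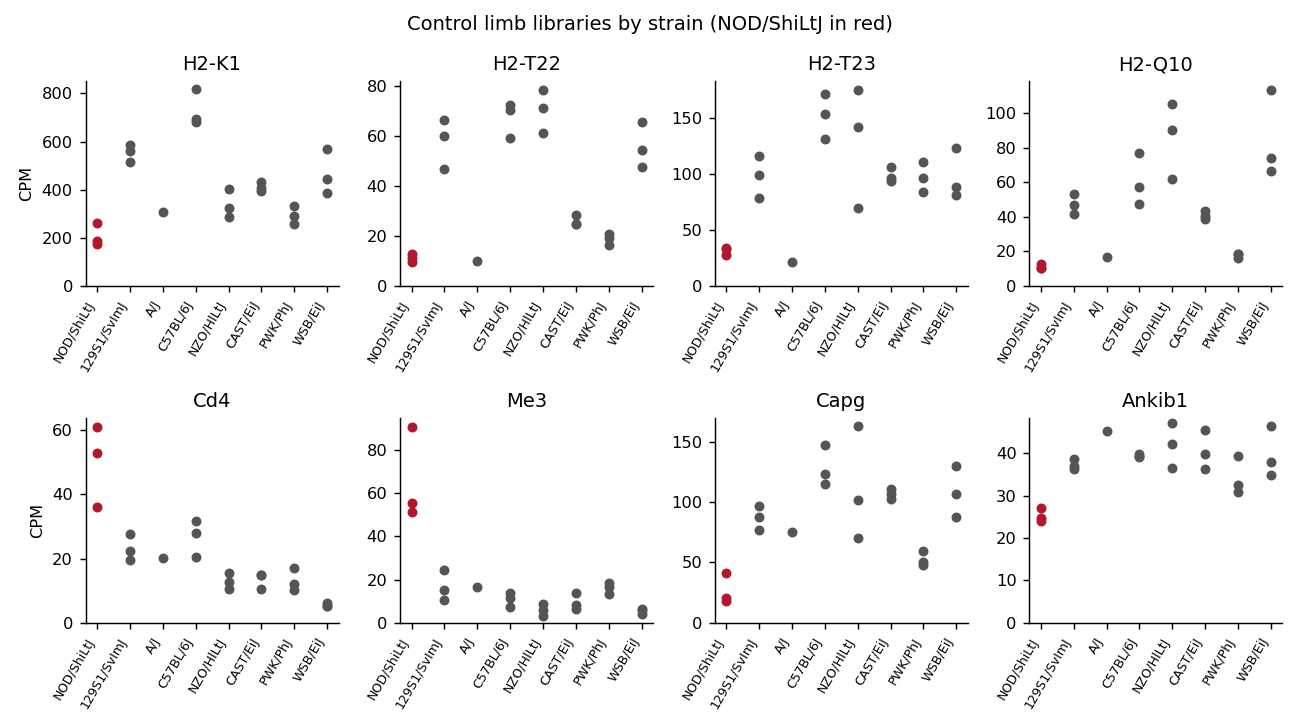
CPM of 8 genes in each control limb library, by strain, with NOD/ShiLtJ in red; every vertical axis starts at 0. H2-K1, H2-T22, H2-T23, H2-Q10, Capg and Ankib1 are low in NOD/ShiLtJ and Cd4 and Me3 are high. A/J lies with NOD/ShiLtJ for H2-T22 and H2-T23.

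Of 18 natural killer (NK) cell genes, 3 were called higher, all members of the Ly49 receptor family, which reads class I molecules. Klra8 was at 4.19, 4.87 and 4.53 CPM in NOD/ShiLtJ, as in C57BL/6J (2.16 to 4.49 CPM) and NZO/HlLtJ (3.40 to 9.35 CPM), and at 1.36 CPM or less in the other 5 strains (3.75 ± 0.37, FDR 8.32e-06). Klra1 was at 3.67, 3.68 and 5.38 CPM, above the 0 to 2.79 CPM of the others (3.39, FDR 3.77e-05), and Klra9 was called at 2.30 (FDR 0.0109). With the muscle covariate Klra8 was still called (FDR 0.00223) and Klra1 (0.0566) and Klra9 (0.437) were not, and Klra9 lost its call without NOD/ShiLtJ mouse 6 (0.0912). Klra2, another member of the family that was not in the list, was low, at 3.32, 5.13 and 4.75 CPM against 5.46 to 27.2 CPM (-1.57, FDR 0.0026). The number of Ly49 genes is known to vary between strains, and these levels are those of single, mutually similar genes.

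Interferon-response genes were mixed. Of 20 interferon-stimulated genes 4 were called higher and 2 lower (median 0.36), where 9.15% of all genes were higher and 1.67% lower. Of 17 interferon-gamma GTPases 5 were higher and 0 lower (0.34), and of 8 Ifi200 genes 2 were higher and 1 lower (-0.01). With the muscle covariate 1 of these calls remained, that of Pydc4, which was lower. Oas3 (1.25), Oas2 (1.10) and Isg15 (0.79), antiviral effectors, were called higher, but each lost its call without mouse 4, at FDR 0.376, 0.791 and 0.349. Mx1, a GTPase active against influenza viruses, was lower (-1.02, FDR 0.00767), although not against 129S1/SvImJ and A/J (0.12) or without NOD/ShiLtJ mouse 5 (FDR 0.0629). Tgtp2 (1.74, FDR 0.000412) and Gbp10 (4.03, FDR 8.32e-05) were among the GTPases called higher. Gbp10 was at 12.1, 3.29 and 3.37 CPM in NOD/ShiLtJ against 4.04 CPM or less elsewhere, so only mouse 4 stood above the other libraries. Against 129S1/SvImJ and A/J, 0 of the 17 GTPases were called higher and 1 was lower, where 0.812% of all genes were higher and 0.467% lower.

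Of 17 candidate genes of NOD diabetes loci tested, 1 was called. Fcgr2b, the inhibitory receptor for IgG on B cells and macrophages, was at 22.7, 42.3 and 40.8 CPM, within or below the 33.0 to 130 CPM of the other libraries (-0.89 ± 0.19, FDR 0.00429). Its FDR was 0.052 without mouse 4. The candidates Ctla4 (0.04), Ptpn22 (-0.23) and B2m were not called. The lists of B cells (0 of 16, median -0.05), plasma cells (0 of 12, -0.19), neutrophils (0 of 16, -0.02), erythroid cells (0 of 14, 0.48), megakaryocytes and platelets (0 of 10, -0.03), inflammation (0 of 17, -0.29), cell cycle (0 of 14, -0.03) and peripheral nerve (0 of 10, -0.02) held no called gene. Single calls were Marco higher and Vsig4 lower of 17 macrophage genes, Clec9a lower of 12 dendritic cell genes, Cpa3 higher of 16 eosinophil, basophil and mast cell genes, and Sgk1 higher of 11 glucocorticoid genes. Of 19 complement genes C7 and C2 were higher, Fcgr2b was the 1 call of 12 Fc receptor genes, and Ifi202b was the 1 call of 6 genes known to mark strains. Without mouse 4 the macrophage, dendritic cell, mast cell and glucocorticoid lists held no call, and with the covariate none of the lists in this paragraph held one.

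Immunoglobulin variable segments were called in number. No gene of the plasma cell list was called, and that list itself holds the immunoglobulin constant regions Ighm, Igkc, Iglc1 and Iglc2. Of 98 heavy chain variable segments tested, 31 were called higher and 0 lower, with a median of 1.80. Of 94 kappa segments 18 were higher and 2 lower, with a median of 0.65. Over all genes tested 9.15% were higher and 1.67% lower. Ighg2c, the constant region of IgG2c, was chosen after values were seen, as was Ighm. Ighg2c was at 94.0, 183 and 181 CPM against 0 to 81.6 CPM in the others, without overlap (2.78 ± 0.62, FDR 0.00556). In immobilized limbs it was at 79.6 to 179 CPM against 0.936 to 151 CPM, so the groups overlapped there. Its counts also depend on how close each strain's allele is to the reference. Igkv5-45 was at 6.99, 8.81 and 24.8 CPM against 0 to 6.28 CPM. Ighm, the constant region of IgM, was at 699.5, 745 and 1283 CPM, well inside the 267 to 5494 CPM of the others. Segments are near-identical and their number differs between strains, so the counts of single segments are uncertain. The numbers of called segments were not recomputed with a library left out. Among the NOD/ShiLtJ libraries Igkv5-45 and Ighm were both highest in mouse 6. The summed level of heavy chain segments was 185 to 611 CPM in NOD/ShiLtJ, inside the 18.4 to 632 CPM of the others, and that of kappa segments was 232 to 637 CPM, inside 54.8 to 1607 CPM. In all, 52 immunoglobulin variable genes were called, 50 of them higher. With the muscle covariate 4 variable genes were called, all higher, where 0.655% of all genes were higher.

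Few genes set NOD/ShiLtJ apart from each strain separately. Against single strains 3772 genes were called for CAST/EiJ (22.9%), 3059 for PWK/PhJ (18.5%), 2064 for C57BL/6J (12.5%), 1461 for WSB/EiJ (8.86%), 935 for NZO/HlLtJ (5.67%), 314 for 129S1/SvImJ (1.9%) and 106 for the single A/J library (0.643%). In 2 genes (0.0121%) NOD/ShiLtJ differed one way from all 7 strains. Ankib1, a ubiquitin ligase (chr5:3690000-3802925), was at 24.6, 23.9 and 27.1 CPM against 30.8 to 47.3 CPM (-0.65 ± 0.11, FDR 0.000718). Gm6483, an unprocessed pseudogene, was at 14.9, 11.6 and 14.9 CPM against 18.8 to 113 CPM (-1.68, FDR 3.32e-05). Neither overlapped the other strains. This count ran from 0 without NOD/ShiLtJ mouse 5 to 5 without NZO/HlLtJ mouse 4, and it was 1 without NOD/ShiLtJ mouse 4 or 6, 129S1/SvImJ mouse 2 or 6, PWK/PhJ mouse 3, 4 or 6, or any library of C57BL/6J or CAST/EiJ. With A/J left out, 27 genes met the same rule against the remaining 6 strains (0.174%), 15 higher and 12 lower.

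In 170 genes (1.03%) the 3 NOD/ShiLtJ libraries did not overlap the 19 others, 119 above them (0.722%) and 51 below (0.309%). The 12 called genes with the highest differences in this group, outside the muscle class, included 9 with correlations of 0.54 to 0.69 to the muscle score: Atp1b4, Tceal5, Nos1, Slc47a1, Klhl38, Flnc, Nmrk2, Myom3 and Kbtbd13. Nos1, the nitric oxide synthase of nerve and muscle, was at 38.8, 10.8 and 12.4 CPM against 0.147 to 8.92 CPM (3.71, FDR 0.00012), and its difference with the covariate was 1.53 (FDR 0.656). The remaining 3 were the immunoglobulin segment Igkv5-45, the membrane protein gene Tmem132d and AC125149.1. AC125149.1 was at 7.51, 6.18 and 3.80 CPM, with counts elsewhere mainly in CAST/EiJ (0.701 to 1.40 CPM), and stayed called with the covariate (FDR 0.0219).

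Some further higher genes were taken from the set found without A/J and were chosen after values were seen. In each of them the NOD/ShiLtJ level was highest in mouse 4 and lowest in mouse 5, the order of the muscle score. Me3, a mitochondrial malic enzyme (chr7:89632392-89854359), was at 90.7, 51.4 and 55.4 CPM against 3.21 to 24.3 CPM with a median of 10.7, without overlap. Its difference was 2.64 ± 0.24 (FDR 1.77e-06), and it was 1.82 with the covariate (FDR 0.0081) and 1.97 against 129S1/SvImJ and A/J (FDR 0.0126). Psme4, an activator of the proteasome, was at 253, 174 and 197 CPM against 96.0 to 162 CPM (0.79 ± 0.10, FDR 4.64e-05). Ghitm, an inner mitochondrial membrane protein, was at 352, 247 and 288 CPM against 148 to 207 CPM (0.82 ± 0.11, FDR 7.62e-05). Both were called against 129S1/SvImJ and A/J (FDR 0.00848 and 0.0181) but not with the covariate (0.0735 and 0.105). Sms, spermine synthase, was at 119, 50.5 and 66.1 CPM against 19.0 to 44.9 CPM (1.25, FDR 0.000101) and had an FDR of 0.14 with the covariate.

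The 12 called genes with the lowest differences in the non-overlapping group had correlations of -0.36 (Dtx4) to 0.20 (Suclg2) with the muscle score. Capg, which caps actin filaments in macrophages and other motile cells (chr6:72544391-72562983), was at 41.2, 18.1 and 20.8 CPM against 47.4 to 163 CPM with a median of 102. Its difference was -1.79 ± 0.25 (FDR 0.000177), and -1.71 with the covariate (FDR 0.0295). St5, a gene at chr7:109523911-109703605, was at 24.5, 27.8 and 23.8 CPM against 29.3 to 76.9 CPM (-0.92 ± 0.11, FDR 4.33e-05). Suclg2, a subunit of succinyl-CoA ligase (chr6:95473009-95718800), was at 30.2, 17.9 and 21.9 CPM against 32.8 to 52.7 CPM (-0.86 ± 0.14, FDR 0.000523), in the opposite direction to the respiratory chain genes. With the covariate St5 was called (FDR 0.0038) and Suclg2 was not (FDR 0.0529).

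Prcp, a lysosomal carboxypeptidase, was at 42.6, 55.5 and 54.4 CPM against 60.9 to 140 CPM (-0.80, FDR 0.000559). Akr1e1, an aldo-keto reductase, was at 1.75, 2.89 and 2.74 CPM against 3.85 to 16.4 CPM (-1.70, FDR 0.000856). The others of the 12 lowest were Cbln1 (-2.39), H2-Q10, Klra2, Desi1 (-1.21), Dtx4 (-0.99), Lpxn (-0.96) and Slx1b (-0.81). Lpxn lost its call without mouse 4 (FDR 0.053), and the other 11 kept theirs whichever library was left out. With the covariate 3 of the 12 were called, H2-Q10, St5 and Capg, and the other 9 had FDRs from 0.0517 (Dtx4) to 0.765 (Lpxn). Me3, Suclg2, St5, Capg and Cd4 were each called against 6 strains, all but the single A/J library. Me3 was picked from a set defined by such calls. Suclg2, St5 and Capg were picked for not overlapping the same libraries. For these genes the number of strains is therefore not a separate result.

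Several large differences were in near-identical copies of a gene, chosen here after values were seen. They are shown because the copies differ by few bases, so a read can count for either. Rps3a1 encodes a protein of the small ribosomal subunit, and Rps3a2 and Rps3a3 are processed pseudogenes on chromosomes 14 and 13. Over the coding sequence of 795 bases, Rps3a2 matched Rps3a1 at 788 of 792 bases compared (99.5%) and Rps3a3 at 786 of 795 (98.9%). The 90 coding bases from position 579 to 668, in the GENCODE M21 transcripts (GRCm38), hold 2 of the differences of each copy, which are in capitals.
Rps3a1: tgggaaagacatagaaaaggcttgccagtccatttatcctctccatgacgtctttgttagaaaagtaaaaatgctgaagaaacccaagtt
Rps3a2: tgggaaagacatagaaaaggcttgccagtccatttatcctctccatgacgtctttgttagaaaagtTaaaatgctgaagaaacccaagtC
Rps3a3: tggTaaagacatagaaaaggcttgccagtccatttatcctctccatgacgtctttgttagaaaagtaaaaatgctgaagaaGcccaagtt

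Rps3a1 was at 1199.8, 1124 and 1121 CPM in NOD/ShiLtJ, and Rps3a2 (0 to 0.874 CPM) and Rps3a3 (0.316 to 0.395 CPM) were almost without counts. C57BL/6J and NZO/HlLtJ showed the same split, while in 129S1/SvImJ, A/J, PWK/PhJ and WSB/EiJ Rps3a1 held 109 to 239 CPM and Rps3a2 held 476 to 1026 CPM. The fitted differences were 1.84 for Rps3a1 (FDR 1.04e-09), -7.84 for Rps3a2 and -6.25 for Rps3a3. The last 2 lost their calls when 1 library of NZO/HlLtJ or C57BL/6J, strains with counts near 0, was left out. The sum over the 3 copies was 1121 to 1201 CPM in NOD/ShiLtJ and 825 to 2013 CPM in the other strains, so the groups overlapped on the sum.

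Rpl34, a protein of the large subunit, and its processed pseudogene Rpl34-ps1 on chromosome 6 matched at 352 of 354 coding bases (99.4%), and the 90 coding bases from 43 to 132 hold 1 of these differences, in capitals.
Rpl34: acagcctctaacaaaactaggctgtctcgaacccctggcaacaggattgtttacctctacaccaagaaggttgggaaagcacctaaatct
Rpl34-ps1: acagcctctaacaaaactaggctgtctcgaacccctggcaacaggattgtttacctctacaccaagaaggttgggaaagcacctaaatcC
Rpl34 was at 69.4, 50.6 and 49.1 CPM in NOD/ShiLtJ and Rpl34-ps1 at 215, 162 and 145 CPM. The split was like that of 129S1/SvImJ (62.3 to 70.8 CPM and 196 to 198 CPM), and CAST/EiJ also had counts on the pseudogene (99.0 to 108 CPM), where the remaining strains had 1.52 CPM or less. The sums were 195 to 284 CPM in NOD/ShiLtJ and 208 to 366 CPM in the others, which overlap.

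Bglap2, the only bone matrix call, also has near-identical copies. Bglap, Bglap2 and Bglap3 lie side by side on chromosome 3 and encode osteocalcin, a small protein of bone matrix, and osteocalcin-related protein. Bglap2 matched Bglap at 98.6% of 288 coding bases and Bglap3 at 95.5%. Bglap2 was at 228, 471 and 540 CPM in NOD/ShiLtJ, at 74.7 to 1129 CPM in 5 strains and at 1.24 CPM or less in CAST/EiJ and PWK/PhJ, with a difference of 3.17 from the mean of all 7 (FDR 1.12e-05). Against 129S1/SvImJ and A/J it was -0.42. The sum over the 3 genes was 706 to 1696 CPM in NOD/ShiLtJ (median 1469) and 222 to 6112 CPM in the others (median 712). The 6112 CPM belonged to the single A/J library, and the next highest strain, PWK/PhJ, reached 2128 CPM. Whether the Bglap2 difference comes from read assignment between the copies was not tested. Gapdh, often used as a reference gene, was at 1145, 469.7 and 556 CPM in NOD/ShiLtJ, at 12.4 to 25.1 CPM in CAST/EiJ, PWK/PhJ and WSB/EiJ, and at 1320.0 to 1955 CPM in C57BL/6J and 129S1/SvImJ. Of the genes called with the muscle covariate, 46.2% were annotated as pseudogenes, against 5.32% of all genes tested.

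**Figure D5:**
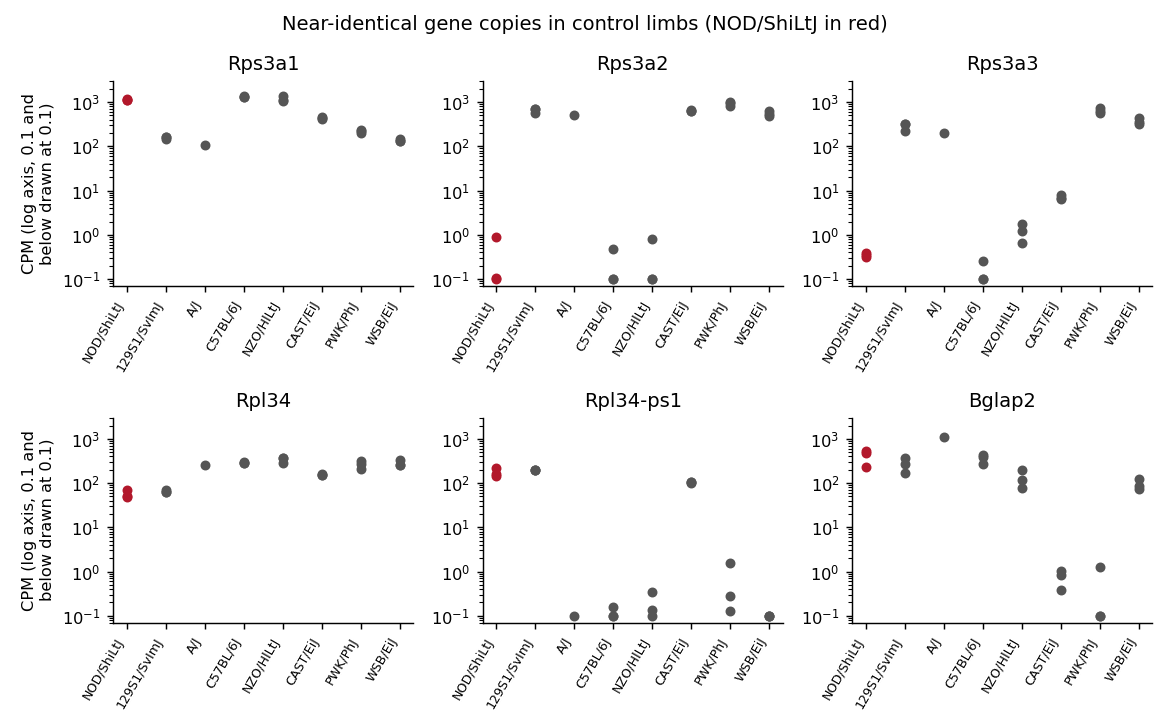
CPM of 6 genes with near-identical copies in each control limb library, by strain, on a log axis with values of 0.1 and below drawn at 0.1 and NOD/ShiLtJ in red. Rps3a1 is high and Rps3a2 and Rps3a3 are near 0 in NOD/ShiLtJ, C57BL/6J and NZO/HlLtJ. Rpl34-ps1 has counts in NOD/ShiLtJ, 129S1/SvImJ and CAST/EiJ.

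The immobilized limbs of the same mice gave a comparison in other libraries, with 3 A/J mice. Muscle RNA was less apart there: the score was 6.12, 7.59 and 6.25 in NOD/ShiLtJ and 0.50 to 9.35 in the 21 other libraries. Muscle content was still not equal, since 24 of the 30 muscle genes were called higher, with a median of 2.36. Of 15478 genes tested, 3038 were called (19.6%), 1966 higher (12.7%) and 1072 lower (6.93%). The count was 1626 without NOD/ShiLtJ mouse 4 and 880 without NOD/ShiLtJ mouse 6. Outside the muscle class 579 genes were called in the same direction in both limbs, and 4 were called in opposite directions. The 579 are 36.0% of the 1608 control calls, of which 1480 were tested in both limbs, and 19.7% of the 2939 immobilized calls. Over all 15439 genes tested in both limbs, the muscle class included, 15.7% were called in immobilized limbs in the direction of their control difference. Both limbs come from the same mice, so the second limb is not an independent set of animals. With the covariate, 144 of the genes called in control limbs were tested in both. Of these, 123 were called in the same direction with the covariate in immobilized limbs. That is 85.4% of the 144 and 7.57% of the 1624 immobilized calls, which were made among 15478 genes tested.

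H2-K1, Cd4 and Suclg2 were called in the same direction in both limbs. H2-K1 was at 181 to 213 CPM in the NOD/ShiLtJ immobilized limbs against 216 to 715 CPM in the others (-1.07, FDR 0.000168). Cd4 was at 33.9, 52.8 and 32.3 CPM against 4.85 to 27.9 CPM (1.58, FDR 4.1e-05). Suclg2 was at 15.7 to 19.6 CPM against 34.0 to 50.4 CPM (-1.21, FDR 2e-07). None of these overlapped. H2-T22 (-2.36), H2-T23 (-2.15), H2-Q10 (-1.93), H2-T10 (1.44), Me3 (1.52) and Capg (-0.98) were called in the immobilized limbs as well, and St5 (-0.49, FDR 0.0779) and Ankib1 (-0.16, FDR 0.372) were not. H2-D1 (0.34, FDR 0.095) and H2-Eb1 (0.69, FDR 0.0611), called higher in control limbs, were not called in immobilized limbs.

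Other groups are set side by side for the limbs, and the lists' differences between limbs were not tested. Nuclear respiratory chain genes had 0 of 19 called in immobilized limbs, with a median of -0.09. Osteoblast and bone matrix genes had 18 of 19 called higher in immobilized limbs (median 1.71) against 1 of 19 in control limbs. Adipocyte genes had 7 of 13 called lower (median -1.50) against 0 of 13. Over all genes tested in immobilized limbs 12.7% were higher and 6.93% lower. Col1a1 was uneven there, at 21309, 43355 and 112460 CPM in NOD/ShiLtJ, and overlapped the 2380 to 88089 CPM of the others. The list counts of immobilized limbs were not recomputed with a library left out. A difference between the limbs was tested gene by gene in a fit with a term per mouse, in which 29 of 16882 genes were called. Of 196 genes named by rule or in the text, Dtx4 alone was called there, and Col1a1 was not.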

How the data were processed

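RNA was measured by stranded poly(A) RNA-seq, per the labels' protocols. The authors deposited raw gene-level read counts as whole numbers in 1 table. featureCounts, DESeq2 and mm10 appear, without versions, in the submitters' processing notes. Which aligner, annotation and strand setting were used is not given in the sources used here. Of its 32544 gene rows, 7355 had no count in any library and 31332 matched 1 GENCODE M21 gene (GRCm38) by symbol. All libraries were assigned against the C57BL/6J reference, so counts of other strains depend on how close their alleles and gene copies are to it.

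The 22 usable control libraries were fitted in edgeR 4.0.16 (R 4.3.3) with a coefficient per strain, TMM scaling, filterByExpr and the robust quasi-likelihood F test. The A/J coefficient has 1 library and is assumed to vary like the others. The contrast was NOD/ShiLtJ minus the unweighted mean of 7 strains, with 7 single-strain contrasts, and the 24 immobilized libraries were fitted alike. All adjusted p-values are Benjamini-Hochberg FDRs over all genes tested. The muscle score is a mean log2 CPM (prior count of 2) computed from the deposited counts. Alternatives were RLE and upper-quartile scaling, DESeq2 1.42.0, limma-voom (limma 3.58.1), other filters and sets of libraries, a replicate block and the muscle covariate. The contrast was tested on simulated data.

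Named genes are the 12 highest and 12 lowest called genes outside the muscle class whose NOD/ShiLtJ libraries do not overlap the others, with a mean of at least 5 CPM, in each list up to 4 called members and the first 2, the 4 most abundant muscle genes, and genes that differ one way from all 7 strains. Others were chosen after values were seen, as is said for most of them. Those not so described in the results are Myh7, Ctla4, Ptpn22, B2m, Tap1, Tap2, Tapbp, Psmb8, Psmb9, Cd8a and Gapdh. The members and lists were chosen with earlier results of these data known.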

Additional observations from a re-analysis of the deposited data

Results flagged for a closer look

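The difference between NOD/ShiLtJ and the other strains was not the same in the 2 limbs for Dtx4, a ubiquitin ligase of the Notch pathway. In control limbs it was at 33.9, 34.9 and 38.0 CPM in NOD/ShiLtJ, below the 47.96 to 118 CPM of the 19 other libraries. In immobilized limbs it was at 57.4 to 82.0 CPM against 47.5 to 172 CPM. The gap was -0.99 in control limbs (FDR 0.000128) and -0.08 in immobilized limbs (FDR 0.737), and the gap in control limbs minus that in immobilized limbs was -0.946 in a fit with a term per mouse. Of 196 genes named by rule or in the text and tested this way, it was the 1 that passed (SE 0.176, FDR 0.0392). Over all genes 29 of 16882 passed. Dtx4 was named because its control levels did not overlap, and the limb test uses the same control libraries. A smaller gap in the other limb is favoured by that choice. In control limbs Dtx4 was not called with the muscle covariate. The cause was not tested.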

How the results depend on the processing

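The muscle score difference of 3.82 kept its direction in all settings tried (RLE scaling, another prior count, the first 10 genes, libraries weighted equally, each NOD/ShiLtJ library left out), from 3.20 to 4.26. The exact permutation p of the library-weighted difference was under 0.05 in each. The 1784 called genes became 145 with the muscle covariate, 444 against the 4 other classical strains, 211 against 129S1/SvImJ and A/J, 171 against those without NOD/ShiLtJ mouse 4, and 677 to 2273 with 1 library left out, the lowest without NOD/ShiLtJ mouse 4. The 1608 calls outside muscle became 144, 403, 211 and 171 in the same settings, 974 with a muscle-tracking correlation of 0.3, and 568 to 2097 with 1 library left out. The 2 genes differing one way from all 7 strains became 9 with DESeq2, 4 with limma-voom, 1 without a filter, 1 with all 24 control libraries, 0 with the covariate, and 0 to 27 with 1 library left out, where 27 is without the A/J library and so against 6 strains. The 3038 calls in immobilized limbs became 1624 with the covariate and 880 to 2207 with 1 NOD/ShiLtJ library left out. Scaling, filters, DESeq2, limma-voom, 1 fit of 46 libraries and equal library weights left the control count between 1681 and 2079, and all 24 control libraries gave 1659.

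With the covariate the sign turned for Myh2 (-0.38), Acta1 (-0.10), Tnnt3 (-0.27), Atp2a1 (-0.29) and Myh4 (-0.68), which are in the score. Against 129S1/SvImJ and A/J it turned for Bglap2 (-0.42), H2-Eb1 (-0.34), Mx1 (0.12), Ifi202b (-0.44) and Gapdh (-0.041), and the cause was not tested. Of the called genes named in the text, 63 more lost their call with the same sign with the covariate and 53 more against 129S1/SvImJ and A/J, while 31 lost it when some 1 library was left out. The covariate raises the standard errors, and a reference of 4 libraries is smaller.

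Replicate numbers name different mice in different strains and do not pair them. Same-numbered mice of different strains deviated together with a median correlation of 0.0164 over 34 pairs, against -0.00263 over 155 pairs with different numbers. A replicate block gave 1034 calls, 863 outside muscle and 0 one way from all 7 strains, and 3125 in immobilized limbs.

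Counting noise limits genes of low level, the more so in the smallest library, of 5888836 counts. A/J rests on 1 library, so its single-strain tests are the least precise. Diabetes status, cell composition and allele-specific read assignment were not measured.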
